A study of Mus musculus with 2 samples.

Results

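Alveolar type 1 (AT1) cells are the very flat epithelial cells that line most of the gas-exchange surface of the lung. They share a thin basement membrane with the capillary endothelium, they move water and ions, and they send growth factors to neighbouring mesenchymal and endothelial cells. In the newborn mouse lung they spread over the growing septa, and they are also a source of Hedgehog and PDGF ligands for the myofibroblasts of those septa. Alveolar type 2 (AT2) cells, which make surfactant, can give rise to AT1 cells.

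The AT1 cells described here are the 730 cells of cluster 15 among 23 clusters in the authors' deposited annotation of 22963 cells. Clusters 15 and 17 were the candidates, and the cluster with 730 cells was taken, in which Ager reached 16953 CPM (UMIs of a gene per 1000000 UMIs of the cluster) against 40.6 CPM in cluster 17. The cells came from 2 droplet libraries of mouse lung at postnatal day 6, made with the 10x Genomics 3' kit. One library came from pups treated with 5E1, an antibody that blocks Hedgehog ligands, and the other from pups treated with control IgG. In both groups the pups were Gli1creERT2/+;R26RtdTom/+, meaning that they carried an inducible Cre recombinase in the Gli1 gene and a tdTomato reporter. All received tamoxifen at day 1 and antibody at day 3, both under the skin. For each condition, lungs of 3 pups went into 1 pool that was digested with Dispase II and collagenase A and gave 1 library. The design therefore has no replicates. No test could be made, intervals cover counting error only, and higher or lower describes these 2 libraries and not the treatment in general.

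The 5E1 library held 443 of the AT1 cells among 9454 annotated cells, and the IgG library held 287 among 13509. Summed over AT1 cells, 2394996 UMIs (unique molecular identifiers, each standing for 1 captured transcript) were counted in the 5E1 library and 1714880 in the IgG library. The median AT1 cell held 4093 UMIs in the 5E1 library and 4919 in the IgG library, with interquartile ranges of 2034.5 to 6513.5 and of 2630 to 7775.5. AT1 cells were thus shallower in the 5E1 library, at a ratio of medians of 0.832, whereas 16 of the other 22 clusters were deeper there. Median genes per AT1 cell were 1767 in the 5E1 library and 1964 in the IgG library, and median mitochondrial shares were 2.78% and 2.59%. The libraries shared 184 barcodes, of which 7 AT1 barcodes of the 5E1 library and 4 of the IgG library were also found in the other.

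The sex of the pups also differed. In the 5E1 library 119 AT1 cells (26.9%) held a UMI of Xist, the RNA of the inactive X chromosome, and 119 (26.9%) held a UMI of 1 of the Y-linked genes Ddx3y, Eif2s3y, Kdm5d and Uty. In the IgG library 240 AT1 cells (83.6%) held an Xist UMI and 0 held a Y-linked UMI. The 5E1 pool therefore held cells of both sexes, while no Y-linked UMI was detected in IgG AT1 cells. Of the 119 5E1 cells with Xist, 107 held nothing Y-linked, so some cells held UMIs of both kinds. The origin of such mixed cells was not tested. Sex and antibody cannot be told apart in full. Values from the 107 AT1 cells of the 5E1 library that held Xist but nothing Y-linked, called female 5E1 cells below, are given beside some results. They are set against all 287 IgG AT1 cells, with or without an Xist UMI. The filter thus acted on the 5E1 library alone, and these values do not compare females with females. Where both libraries were filtered, the text says so.

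All 4 marker genes of the cell type were higher in cluster 15 than in any other cluster of the same library. Ager, which encodes the receptor for advanced glycation end products found on the basal side of AT1 cells, stood at 17153 CPM in 5E1 AT1 cells (95% Poisson interval 16987 to 17320) and at 16674 CPM in IgG AT1 cells (16481 to 16869). The next cluster was the AT2-like cluster 9, with 2583 CPM in the 5E1 library and 1834 CPM in the IgG library. Aqp5, a water channel, stood at 2299 CPM in 5E1 and 2447 CPM in IgG AT1 cells, against 346 and 184 CPM in cluster 9. Akap5, an anchoring protein for protein kinase A, stood at 1093 CPM in 5E1 and 1082 CPM in IgG AT1 cells, against 165 and 110 CPM in cluster 9. Rtkn2, a protein with a GTPase-binding domain, stood at 635 CPM in 5E1 and 543 CPM in IgG AT1 cells, against 79.5 and 35.7 CPM in cluster 9. Ager was used to choose the cluster. The other 3 markers were not, although the authors' clusters were made from the same cells and genes.

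**Figure D1:**
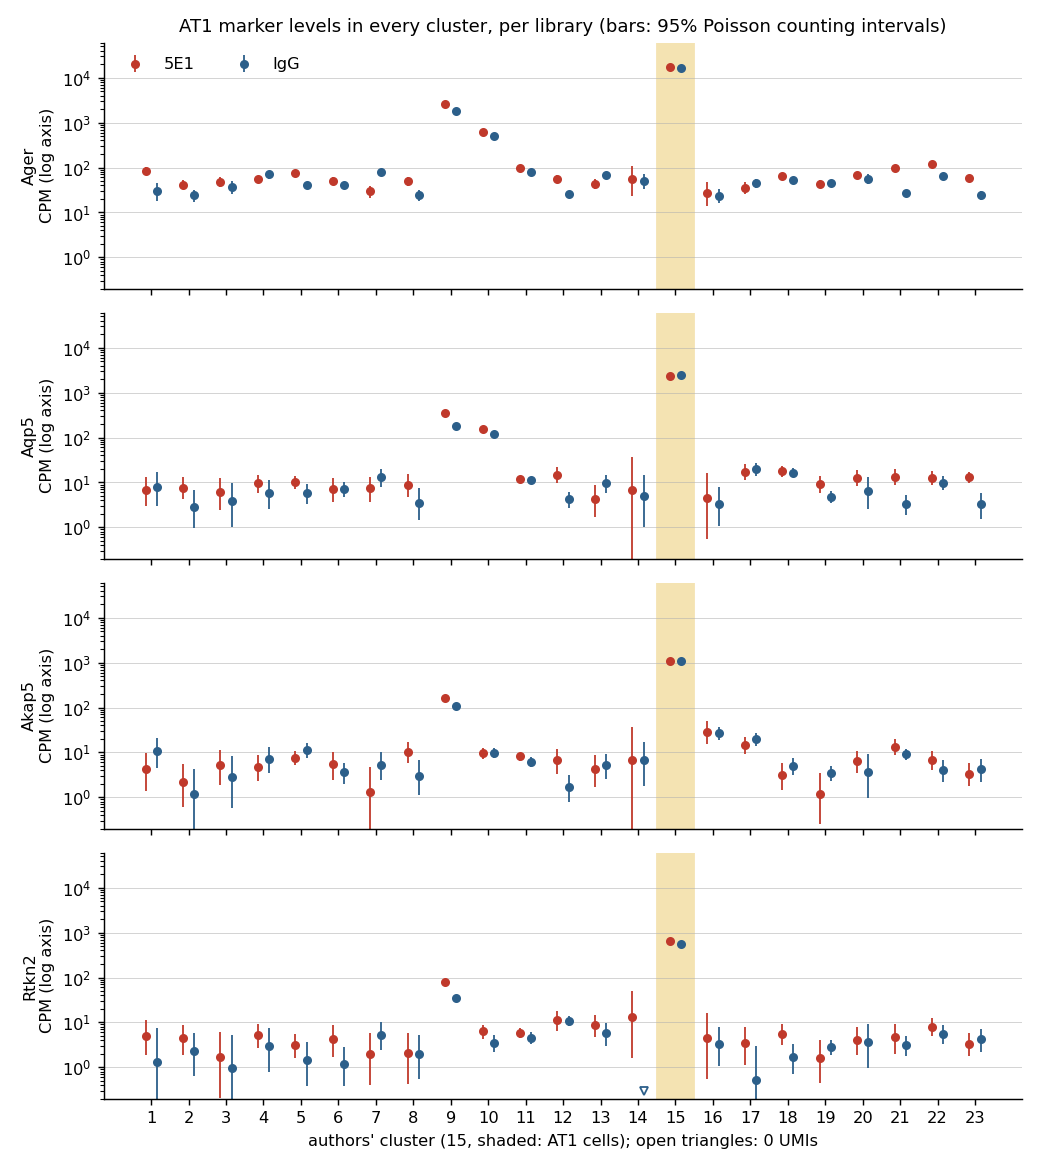
Levels of Ager, Aqp5, Akap5 and Rtkn2 in CPM (log axes) in each of the authors' 23 clusters, with 5E1 in red left of IgG in blue. Points are summed UMIs of a cluster and library over its total, bars are exact 95% Poisson intervals, open triangles mark 0 UMIs, and the shaded cluster 15 stands above all other clusters for each gene in both libraries.

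Reference sequence from 250 bases before to 50 bases after the transcript start (RefSeq, GRCm38.p6) is shown for the markers with an entry and for Igfbp2, the marker that differed most between the libraries among the well-counted ones. Rtkn2 had no entry. The motif searched on both strands was GGGGCGGGG, the GC box bound by zinc-finger proteins of the Sp and KLF families, with the reverse complement CCCCGCCCC. Capitals mark its matches. The windows lie on the plus strand at chr17:34597600-34597899 for Ager, chr15:99590778-99591077 for Aqp5, chr12:76324641-76324940 for Akap5 and chr1:72824230-72824529 for Igfbp2.
Ager: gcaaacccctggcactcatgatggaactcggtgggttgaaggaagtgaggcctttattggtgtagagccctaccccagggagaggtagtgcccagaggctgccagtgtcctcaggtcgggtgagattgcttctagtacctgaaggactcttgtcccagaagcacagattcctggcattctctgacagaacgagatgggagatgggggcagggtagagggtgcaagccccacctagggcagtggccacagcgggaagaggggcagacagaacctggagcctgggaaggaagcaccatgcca
Aqp5: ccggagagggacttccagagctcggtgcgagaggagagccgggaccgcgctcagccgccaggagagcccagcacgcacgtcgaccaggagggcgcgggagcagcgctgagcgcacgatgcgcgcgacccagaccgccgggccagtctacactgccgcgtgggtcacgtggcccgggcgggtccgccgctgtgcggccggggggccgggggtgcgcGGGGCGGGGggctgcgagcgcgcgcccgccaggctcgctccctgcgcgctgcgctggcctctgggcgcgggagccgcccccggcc
Akap5: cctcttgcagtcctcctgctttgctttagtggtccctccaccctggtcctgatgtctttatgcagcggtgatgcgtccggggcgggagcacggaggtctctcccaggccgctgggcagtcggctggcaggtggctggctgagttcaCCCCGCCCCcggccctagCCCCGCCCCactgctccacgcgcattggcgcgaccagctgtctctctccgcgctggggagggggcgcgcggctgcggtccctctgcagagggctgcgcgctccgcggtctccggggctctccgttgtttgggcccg
Igfbp2: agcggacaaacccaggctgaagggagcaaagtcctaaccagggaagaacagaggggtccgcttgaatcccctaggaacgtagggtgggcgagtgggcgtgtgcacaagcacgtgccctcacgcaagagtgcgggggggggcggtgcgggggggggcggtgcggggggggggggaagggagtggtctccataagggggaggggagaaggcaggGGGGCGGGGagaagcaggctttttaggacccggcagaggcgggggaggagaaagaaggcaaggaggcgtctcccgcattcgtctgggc

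The Ager window held 0 matches, that of Aqp5 1 match, that of Akap5 2 matches and that of Igfbp2 1 match. Of all 32851 promoter windows in the table, 3760 (11.4%) held a match. Of the 20 genes of the AT1 marker list 17 had an entry, with 22 windows in all, and 6 of these windows held a match. Base composition differed among the windows, with 58.3% G and C for Ager, 79.7% for Aqp5, 70.7% for Akap5 and 67% for Igfbp2. A match describes letters only, and its absence says only that these letters are not in this window.

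Genes that set cluster 15 apart from the next highest cluster, with UMIs of both libraries together, are listed as a description, since the clusters were made from the same genes. Igfbp2, a secreted binding protein of insulin-like growth factors and a marker of mature AT1 cells in the mouse, led with 13.5 times the next cluster. Rtkn2 followed with 10.7 times, Cdkn2b, an inhibitor of cyclin-dependent kinases, with 10.2 times, and Scel, the cornified-envelope protein sciellin, with 10.1 times. Other leading genes were F3, the tissue factor that starts coagulation, at 10.0 times, Wnt3a, a WNT ligand, at 9.87 times, and Scnn1g, a subunit of the epithelial sodium channel, at 9.53 times. Col4a3, a type IV collagen chain of thin basement membranes, stood at 9.45 times, and Itgb6, an integrin chain of epithelia that can activate latent TGF-beta, at 8.22 times. The others of the 15 were Slc17a2, Aqp5, Tshb, Hopx, Wnt7a and Akap5, at 8.04 to 9.41 times. The next cluster was the AT2-like cluster 9 for most of these, and so the distance to AT2 cells sets most of the values.

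AT1 cells took a larger share of the epithelium in the 5E1 library. They were 443 of 1200 cells in the 3 epithelial clusters of the 5E1 library (36.9%, exact binomial interval 34.2% to 39.7%) and 287 of 1324 in those of the IgG library (21.7%, 19.5% to 24.0%). The ratio of these shares was 1.70 (1.46 to 1.98), against 2.21 (1.90 to 2.57) for the share of all cells. The AT2-like cluster made up 42.2% of epithelial cells in the 5E1 library and 52.6% in the IgG library, and the airway cluster 20.8% and 25.8%. Per 100 cells of the AT2-like cluster there were 87.4 AT1 cells in the 5E1 library and 41.2 in the IgG library. Per 100 airway cells there were 177 AT1 cells in the 5E1 library and 84.2 in the IgG library. The ratio between the libraries was 2.12 against AT2-like cells and 2.11 against airway cells, so AT1 cells were more numerous beside both. With female cells alone in both libraries the ratio of the AT1 share of epithelial cells was 1.92 (1.51 to 2.42), with AT1 cells at 38.4% in the 5E1 library and 20.02% in the IgG library. Flat AT1 cells are easily lost in digestion, and with 1 digest per condition their release and their number in the tissue cannot be told apart.

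The identity genes of AT1 cells stood close to each other in both libraries. Of the 20 genes of the AT1 marker list, each with at least 50 UMIs in the AT1 cells of both libraries together, 12 were higher and 8 lower in the 5E1 library, with a median log2 ratio of 0.04 (5E1 over IgG, 0.5 UMI added to each sum). Among all 7146 genes with at least 50 UMIs, 49.1% were higher and 50.9% lower in the 5E1 library, and the median was -0.01 with quartiles of -0.18 and 0.18. Only Cyp2b10 was past 1.5-fold higher (3.33% of all genes were) and 0 members were past 1.5-fold lower (3.72% of all genes were). With female 5E1 cells alone the median of the list was -0.015, the log2 ratio of Ager was -0.02 and that of Itgb6 -0.07. Cyp2b10, a cytochrome P450, rested on few counts, with 59 UMIs in 35 cells of the 5E1 library and 13 UMIs in 10 cells of the IgG library.

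The log2 ratios of the marker genes were 0.04 for Ager, -0.09 for Aqp5, 0.01 for Akap5 and 0.23 for Rtkn2. Hopx, a homeodomain protein without DNA binding that marks AT1 cells, had 2944 CPM in 5E1 and 2583 CPM in IgG AT1 cells, a ratio of 1.14 (exact conditional interval 1.10 to 1.18). Pdpn, the membrane protein podoplanin, had 673 CPM in 5E1 and 726 CPM in IgG AT1 cells, a ratio of 0.927 (0.860 to 0.998). Gprc5a, a retinoic acid-induced receptor protein, and Lmo7, a protein of adherens junctions, had log2 ratios of 0.33 and 0.24. Each of these log2 ratios was smaller in size than that of Igfbp2.

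Igfbp2 was lower in the 5E1 library, with 1840 CPM in 5E1 and 2603 CPM in IgG AT1 cells, a ratio of 0.707 (0.678 to 0.737). It was the lowest log2 ratio of the list, at -0.50, and it ranged between -0.62 and -0.37 over the alternative settings run. After every cell was thinned to 2000 UMIs, which left 338 cells of the 5E1 library and 238 of the IgG library and dropped 105 and 49 shallower cells, an Igfbp2 UMI was found in 83.4% of 5E1 cells (79.0% to 87.2%) and 91.2% of IgG cells (86.8% to 94.5%). Without thinning these shares were 84.7% and 92.0%. In the B cell cluster, which should lack the gene, the thinned shares were 1.497% in the 5E1 library and 1.20% in the IgG library. The quartiles of Igfbp2 per thinned cell were 1, 3 and 6 UMIs in the 5E1 library and 2, 4 and 8 UMIs in the IgG library, so the whole distribution was lower and not only a few cells.

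Each thinned AT1 cell held UMIs of at least 2 of the 4 markers, as did 1.20% of thinned B cells of the 5E1 library and 0.803% of those of the IgG library. Ager was detected in 100% of AT1 cells of both libraries, thinned or not, and in 5.39% and 4.82% of thinned B cells. The cluster was chosen by Ager, so in AT1 cells the count above asks only for a further marker besides Ager. After thinning Aqp5 was detected in 96.2% of AT1 cells in each library, Akap5 in 84.02% of 5E1 and 87.8% of IgG cells, and Rtkn2 in 66.9% and 68.1%. Without thinning the shares in 5E1 and IgG cells were 95.3% and 97.6% for Aqp5, 90.7% and 94.1% for Akap5, and 85.6% and 84.7% for Rtkn2. The intervals of the libraries overlapped for each of these genes.

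The AT1 marker list had a median above 0 in 19 of the 23 clusters, among which AT1 cells ranked 18. In the AT2-like cluster 9, 19 of 19 measured AT1 markers were higher in the 5E1 library, with a median log2 ratio of 0.58, where 49.9% of all genes were higher. Of these 9 were past 1.5-fold higher, against 4.3% of all genes in that cluster. In the airway cluster 10, 16 of 20 were higher, with a median of 0.33, against 51.2% of all genes. Outside the epithelium Ager was higher in the 5E1 library in 15 of 20 clusters, where it ranged between 26.8 and 118 CPM in the 5E1 library and between 23.6 and 79.0 CPM in the IgG library. Ager was thus counted in every cluster, and over these 20 clusters outside the epithelium the median ratio of 5E1 over IgG was 1.25. The part of free RNA in the AT2-like cluster's values was not tested.

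AT2 genes were detected in cluster 15 too, and they were lower in the 5E1 library. Of 20 AT2 markers, 4 were higher and 16 lower in 5E1 AT1 cells, with a median log2 ratio of -0.24, where 50.9% of all genes were lower. Past 1.5-fold lower were 3 of the 20, against 3.72% of all genes. The summed level of the 20 markers was 18123 CPM in 5E1 and 22642 CPM in IgG AT1 cells. Lyz2, a lysozyme of AT2 and myeloid cells, had 674 CPM in 5E1 and 1430 CPM in IgG AT1 cells, a ratio of 0.471 (0.442 to 0.502). This interval leaves out the spread between cells, which was large. Lyz2 was found in 27.8% of 5E1 and 44.9% of IgG AT1 cells, and 3 cells of each library held 386 of 1614 and 703 of 2452 UMIs. Lamp3, a lamellar body membrane protein, and Scd1, a fatty acid desaturase, had log2 ratios of -0.82 and -0.70. Sftpc, the surfactant protein C gene, had 13487 CPM in 5E1 and 16958 CPM in IgG AT1 cells, while S100g, a calcium-binding protein, was higher in the 5E1 library at a log2 ratio of 0.54. Sftpc was also counted in each of the 20 clusters outside the epithelium, between 260.02 and 1324 CPM in the 5E1 library and between 443 and 2219 CPM in the IgG library, and it was lower in the 5E1 library in 17 of them. The difference outside the epithelium thus went the same way, and the part of free RNA in the AT1 values was not tested.

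The surfactant transcripts sat in a small number of AT1 cells. Cells with more than 1% of their UMIs from Sftpc numbered 39 in the 5E1 library (8.80%, 6.34% to 11.8%) and 45 in the IgG library (15.7%, 11.7% to 20.4%). They held 95.8% of the Sftpc UMIs of 5E1 AT1 cells and 94.98% of those of IgG AT1 cells. Their median depth was 12547 UMIs in the 5E1 library and 11752 in the IgG library, against 3806.5 and 4365.5 UMIs in the remaining AT1 cells. Few cells lay near the limit, with 6 cells of the 5E1 library and 10 of the IgG library between 0.5% and 1%, and 5 and 10 between 1% and 2%.

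These cells held AT1 and AT2 transcripts together. In them Ager stood at 11922 CPM in the 5E1 library and 12847 CPM in the IgG library, against 18673 and 18360 CPM in the other AT1 cells. Slc34a2, the sodium-phosphate transporter of AT2 cells, stood at 1204 and 1039 CPM, against 17.8 and 26.9 CPM in the other AT1 cells. Such values can come from droplets with an AT1 and an AT2 cell or from single cells with both programmes, and these cannot be told apart here. Over thinned cells, Spearman's rank correlation between the summed AT1 markers and the summed AT2 list was -0.23 in the 338 5E1 cells and -0.33 in the 238 IgG cells, which is a description over cells of 1 library each. With female 5E1 cells alone the median log2 ratio of the AT2 list was -1.09, and that of S100g was -0.39.

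**Figure D2:**
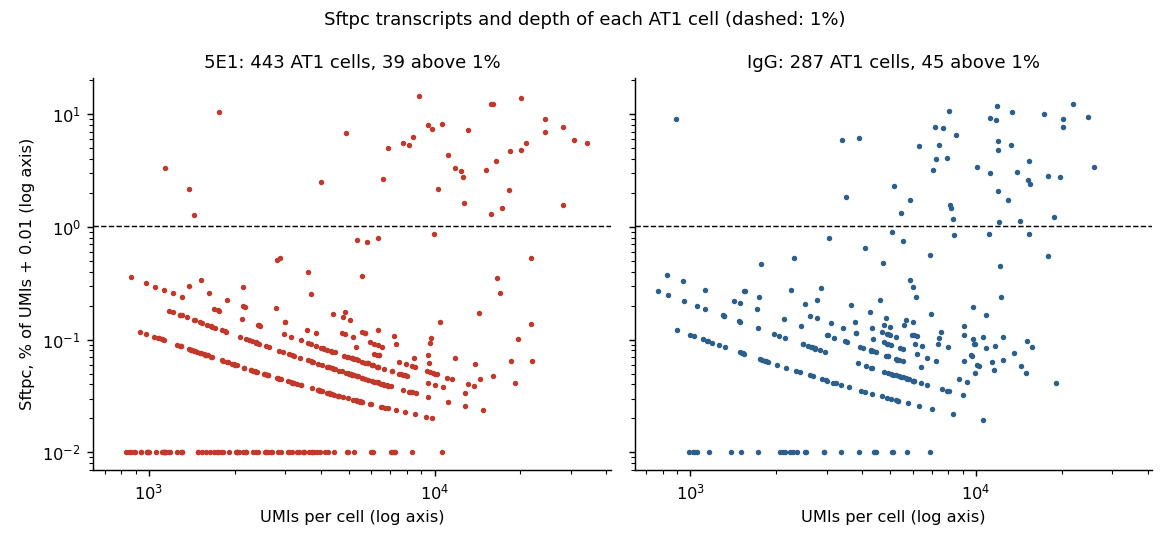
Share of each AT1 cell's UMIs that came from Sftpc (percent, 0.01 added, log axis) against its total UMIs (log axis), with 443 cells of the 5E1 library left of 287 cells of the IgG library. The 39 cells of the 5E1 library and 45 cells of the IgG library above 1% are mostly deeper than the cells below it.

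Over all genes the AT1 cells of the libraries were close. Of the 7146 genes with at least 50 UMIs, 238 were past 1.5-fold higher and 266 past 1.5-fold lower in the 5E1 library, and 37 and 46 were past 2-fold. Most of these were low in count. Among the 2915 genes with at least 200 UMIs, 21 were past 1.5-fold higher and 39 past 1.5-fold lower. When other large clusters were thinned to the UMIs of the AT1 cells, the percentage of such genes past 1.5-fold was 2.06% in AT1 cells and ranged between 1.68% in the airway cluster 10 and 9.63% in cluster 19 over 9 clusters, with 5% in the AT2-like cluster. AT1 cells were the third lowest of the 9.

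The genes with the most extreme ratios were taken from 3844 genes with at least 100 UMIs, 30 CPM in a library and 20% of the level of the top cluster. They were picked for their ratio and describe these libraries only. Camk2n1, an inhibitor of the calcium- and calmodulin-dependent kinase CaMKII, had 165 UMIs in the 5E1 library and 43 in the IgG library, or 68.9 and 25.1 CPM, a ratio of 2.75 (1.95 to 3.94). Its UMIs were spread over 108 cells of the 5E1 library and 31 of the IgG library. Pim3, a serine/threonine kinase, had 86.4 CPM in 5E1 and 42.6 CPM in IgG AT1 cells, a ratio of 2.03 (1.55 to 2.69). Bdnf, a neurotrophin, had 92.7 CPM in 5E1 and 51.9 CPM in IgG AT1 cells, a ratio of 1.79 (1.39 to 2.31).

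P3h2, a prolyl hydroxylase that modifies type IV collagen, had 34.2 CPM in 5E1 and 17.5 CPM in IgG AT1 cells. Others among the 15 highest were Ccndbp1, Nrbf2, BC030870, Hist1h1c, Smim19, Hrct1, Akirin2, Dbndd2, Herc2 and Liph, with ratios of 1.79 to 2.02. Of the 15, 14 were measured in the AT2-like cluster. All 14 were higher in the 5E1 library there too, where 49.9% of all genes were. Past 1.5-fold higher were 4 of the 14, against 4.3% of all genes, and the median log2 ratio was 0.39. In the airway cluster 11 of 14 were higher (51.2% of all genes) and in the endothelial cluster 9 of 12 (50.9%). The clusters share their libraries, so these are not separate samples.

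At the other end stood Lgi3, a secreted leucine-rich repeat protein, with 62.2 CPM in 5E1 and 132 CPM in IgG AT1 cells, a ratio of 0.472 (0.381 to 0.583). Lgi3 was highest in the AT2-like cluster, and in the AT1 cells with more than 1% Sftpc it stood at 161 CPM in the 5E1 library and 227 CPM in the IgG library, against 33.4 and 89.9 CPM in the remaining AT1 cells. With female 5E1 cells alone its log2 ratio was -1.92, against -1.08 with all cells. Cytl1, a small secreted protein, was highest in AT1 cells of all clusters, with 68.9 CPM in 5E1 and 144 CPM in IgG AT1 cells, a ratio of 0.478 (0.390 to 0.585). Its log2 ratio of -1.06 was -2.76 with female 5E1 cells alone. Plb1, a phospholipase, was also highest in AT1 cells, with 50.5 CPM in 5E1 and 95.6 CPM in IgG AT1 cells, a ratio of 0.528 (0.414 to 0.672).

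Others among the 15 lowest were H2-Q2, Fbn2, Twf1, Snrnp200, Snhg11, Traf4, Dars, Npw, Txlna and Gss, with ratios of 0.464 to 0.595. In the AT2-like cluster 10 of the 15 were also lower in the 5E1 library, as were 50.1% of all genes. In the airway cluster 8 of 14 were lower (48.8% of all genes) and in the endothelial cluster 4 of 11 (49.1%). The genes lower in AT1 cells were thus lower elsewhere in fewer cases than the higher genes were higher, which was not tested.

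**Figure D3:**
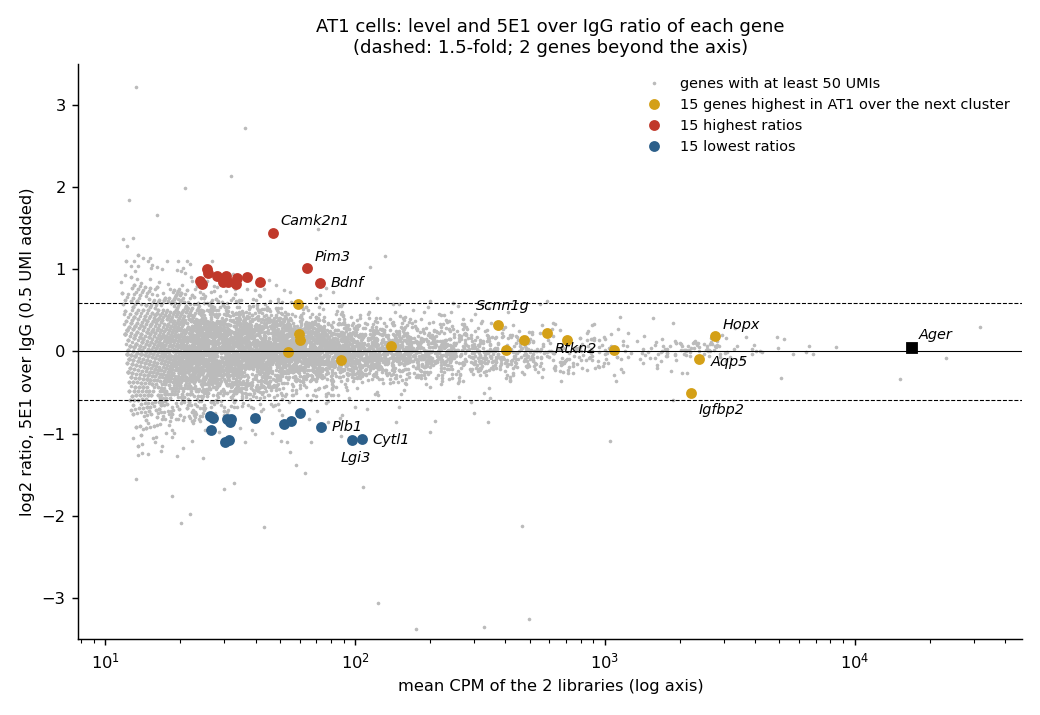
Log2 ratio of each gene in AT1 cells (5E1 over IgG) against its mean level in CPM (log axis), for 7146 genes with at least 50 UMIs. Coloured points mark the 15 highest ratios, the 15 lowest ratios and the 15 genes highest in AT1 cells over the next cluster, most of which lie near 0, with Igfbp2 at -0.50.

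In thinned cells the same genes differed in how many cells held them. A Camk2n1 UMI was found in 14.8% of 5E1 AT1 cells (11.2% to 19.03%) and 3.36% of IgG AT1 cells (1.46% to 6.52%). A Bdnf UMI was found in 18.9% of 5E1 cells (14.9% to 23.5%) and 8.40% of IgG cells (5.21% to 12.7%). A Cytl1 UMI was found in 13.3% of 5E1 cells (9.88% to 17.4%) and 23.1% of IgG cells (17.9% to 29.0%). The counting intervals did not overlap for these genes.

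Without thinning the shares in the 5E1 and IgG libraries were 24.4% and 10.8% for Camk2n1, 29.3% and 21.3% for Bdnf, and 19.9% and 43.9% for Cytl1. In thinned B cells, of which 334 were in the 5E1 library and 249 in the IgG library, the shares were 1.20% and 2.01% for Camk2n1, 0.299% and 0.803% for Bdnf, and 0% and 0.803% for Cytl1. The AT1 shares of Bdnf and Cytl1 were above the B cell shares in both libraries, with intervals that did not overlap. That of Camk2n1 was so in the 5E1 library, while in the IgG library its interval overlapped that of B cells (0.655% to 4.62%). For Lgi3 the thinned shares were 7.99% of 5E1 and 16.0% of IgG AT1 cells, and without thinning 17.6% and 36.2%. For Pim3 the thinned shares were 15.1% of 5E1 and 10.1% of IgG AT1 cells and those without thinning 30.2% and 21.6%, where thinned B cells held Pim3 in 8.08% and 11.6%. Whether B cells make Pim3 was not tested, so no background is read from them for it.

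**Figure D4:**
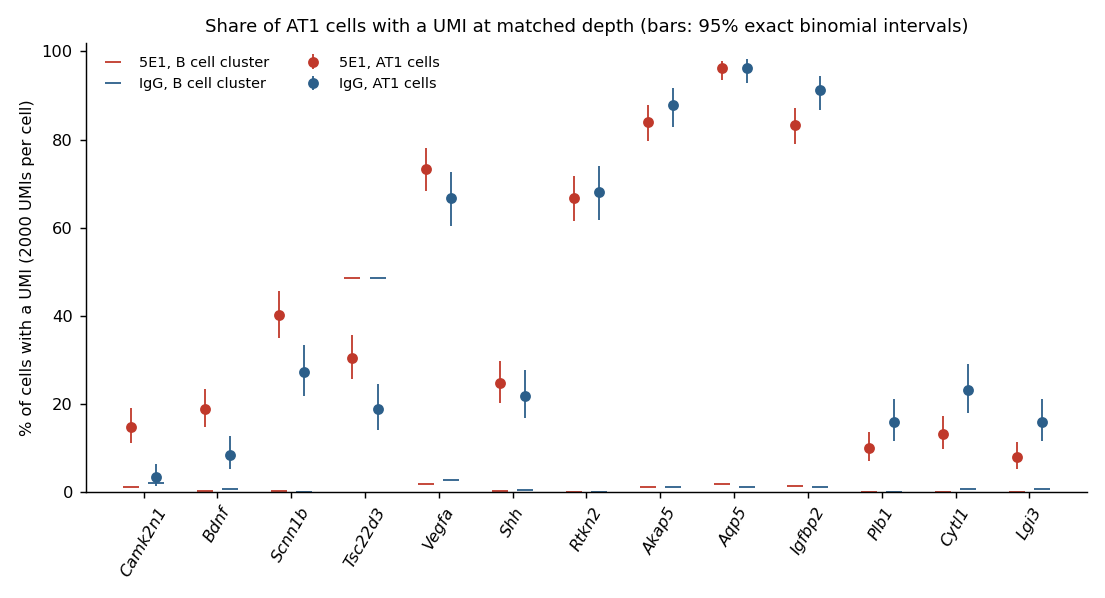
Percent of thinned AT1 cells (2000 UMIs each, 338 of the 5E1 library and 238 of the IgG library) with a UMI of each gene, 5E1 in red and IgG in blue, with exact 95% binomial intervals and dashes for the B cell cluster. Camk2n1, Bdnf and Scnn1b were found in a larger share of 5E1 cells, Igfbp2, Cytl1 and Lgi3 in a smaller one, and Aqp5 in 96.2% of both.

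Ligands made by AT1 cells were split in direction. Of 59 ligands on the list 31 reached 50 UMIs, and 15 of these were higher and 16 lower in the 5E1 library, with a median log2 ratio of 0.00. Past 1.5-fold, 1 was higher and 2 were lower, against 3.33% and 3.72% of all genes. Pdgfa, the ligand for the PDGF receptor of myofibroblasts, was highest in AT1 cells of all clusters and had a log2 ratio of 0.00. Vegfa, the growth factor for neighbouring endothelium, had 706 CPM in 5E1 and 559 CPM in IgG AT1 cells, a ratio of 1.26 (1.17 to 1.37). In thinned cells a Vegfa UMI was found in 73.4% of 5E1 and 66.8% of IgG cells, with overlapping intervals, and without thinning in 86.2% and 83.3%. The thinned B cell shares were 1.80% and 2.81%.

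Nrg1, a ligand of ERBB receptors, was the member past 1.5-fold higher, with 60 UMIs in the 5E1 library and 26 in the IgG library (25.1 and 15.2 CPM, ratio 1.65, 1.03 to 2.73). The members past 1.5-fold lower were Il33, an alarmin cytokine, with 25 UMIs in 5E1 and 40 UMIs in IgG AT1 cells, and Efnb2, an ephrin, with 33 and 37 UMIs. Bmp4 had 135 CPM in 5E1 and 173 CPM in IgG AT1 cells, a ratio of 0.784 (0.667 to 0.921). Among WNT ligands the log2 ratio was 0.21 for Wnt7a, -0.01 for Wnt3a and -0.17 for Wnt4. Sema3e and Sema3a, guidance cues of the semaphorin family, had 0.01 and 0.09, and the matricellular protein Ctgf 0.27. With female 5E1 cells alone Wnt3a had 0.11 and Sema3e -0.10, so that both turned. Tgfb2 and Npnt, a matrix ligand of integrins, had -0.20 and -0.21.

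Hedgehog genes in AT1 cells comprised the ligand and few counts of most response genes. Shh, the ligand that 5E1 blocks, was highest in AT1 cells of all clusters, with 308 UMIs or 129 CPM in the 5E1 library and 197 UMIs or 115 CPM in the IgG library, a ratio of 1.12 (0.933 to 1.35), an interval that includes 1. A Shh UMI was found in 24.9% of thinned 5E1 cells and 21.8% of thinned IgG cells, and without thinning in 39.3% and 48.1%, against 0.299% and 0.402% of thinned B cells. The order of the shares thus turned with depth, and no direction is read from them. Ptch1, the receptor and a target of the pathway, had 32.6 CPM in 5E1 and 47.8 CPM in IgG AT1 cells, a ratio of 0.681 (0.493 to 0.940). Gli1, the target that marks responding cells, had 1 UMI in the 5E1 library and 0 in the IgG library, and Hhip, a target that binds the ligand, had 5 and 23 UMIs.

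Of the 19 genes on the Hedgehog list only Shh, Ptch1 and Smo, the signal transducer, reached 50 UMIs. The tdTomato reporter stood at 79.7 CPM in 5E1 and 78.1 CPM in IgG AT1 cells, which ranked 17 and 21 among the 23 clusters, against 1851 CPM and 1738 CPM in the highest cluster of each library. AT1 cells ranked 2 for Ptch1 in the 5E1 library, next to 33.3 CPM in the highest cluster, and 10 in the IgG library, where the highest cluster held 172 CPM. The Hhip level of IgG AT1 cells was 2.68% of the highest level in any cluster of that library, and the part of free RNA in these values was not tested. Smo had a log2 ratio of -0.09, and of 0.38 with female 5E1 cells alone.

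Receptors and feedback genes gave no shift as a list. Of 43 genes 26 were measured, with 14 higher, 12 lower and 0 past 1.5-fold, and a median log2 ratio of 0.00. Erbb3, a receptor for neuregulins, had a ratio of 1.40 (0.984 to 2.02), and Egfr, the epidermal growth factor receptor, 1.03 (0.765 to 1.40). Smad7, the inhibitory SMAD of TGF-beta signalling, had a log2 ratio of 0.28, Fgfr2, the receptor of mesenchymal FGFs, -0.06, and Notch2 -0.51.

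Transcription factors of lung epithelium were split in direction. Of 40 genes 33 were measured, with 16 higher, 17 lower and a median log2 ratio of -0.07. Nkx2-1, the lineage factor of lung epithelium that AT1 cells also need, had 418 CPM in 5E1 and 359 CPM in IgG AT1 cells, a ratio of 1.16 (1.05 to 1.29). Irx1, an Iroquois factor, and Tead1, a DNA-binding partner of YAP and TAZ, had log2 ratios of 0.37 and 0.27. Sox4 had -0.38, Nfia -0.51, and Mycn -0.61, the 1 member past 1.5-fold lower, with 53 UMIs in 5E1 and 58 UMIs in IgG AT1 cells. Among YAP and TAZ target genes, which respond to cell spreading, 12 of 20 measured were higher, with a median of 0.03. Cyr61 had 0.10 and Ankrd1 0.51, whereas Lats2, a kinase that restrains YAP, had -0.64.

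Of 23 measured junction genes 17 were higher and 6 lower in the 5E1 library, where 49.1% of all genes were higher, with a median log2 ratio of 0.14 against -0.01 over all genes. The median of this list was above 0 in 15 of the 23 clusters, among which AT1 cells ranked 6. Cldn4, a claudin of barrier-tightening junctions, had 55 UMIs in 5E1 and 23 UMIs in IgG AT1 cells, and Perp, a desmosome protein, 123 and 55 UMIs, and these 2 were past 1.5-fold higher, where 3.33% of all genes were. Ocln, the tight junction protein occludin, had a ratio of 1.29 (1.04 to 1.60). Cldn18, the main claudin of alveolar epithelium, had 0.980 (0.949 to 1.01) and Cldn3 0.868 (0.781 to 0.965). With female 5E1 cells alone the log2 ratio was 0.04 for Perp and 0.080 for Cldn3, so that Cldn3 turned.

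Of 20 measured ion and water transport genes 12 were higher and 8 lower, against 49.1% of all genes higher, with a median log2 ratio of 0.12. This median was above 0 in 19 of the 23 clusters, among which AT1 cells ranked 11. The 3 subunits of the epithelial sodium channel, which draws fluid out of the air space, were each higher in the 5E1 library. Scnn1a had 263 CPM in 5E1 and 201 CPM in IgG AT1 cells, a ratio of 1.31 (1.14 to 1.49). Scnn1b had 250 CPM in 5E1 and 183 CPM in IgG AT1 cells, a ratio of 1.37 (1.19 to 1.58). Scnn1g had 415 CPM in 5E1 and 331 CPM in IgG AT1 cells, a ratio of 1.25 (1.13 to 1.39). None of the 3 was past 1.5-fold, and each was above 0 in all 7 settings that change which cells count or how they are weighted.

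In thinned cells a Scnn1b UMI was found in 40.2% of 5E1 cells (35.0% to 45.7%) and 27.3% of IgG cells (21.8% to 33.4%), and without thinning in 60.5% and 57.1%. The B cell shares were 0.299% and 0%. For the other subunits the thinned intervals of the libraries overlapped. Scnn1a was found in 36.1% of 5E1 and 31.9% of IgG AT1 cells, and Scnn1g in 58.0% and 51.3%. Atp1b1, a subunit of the sodium pump that works with the channel, had a log2 ratio of 0.38, but of -0.04 with female 5E1 cells alone. Slc12a2, a sodium, potassium and chloride cotransporter, had 0.60, but -0.17 with female 5E1 cells alone. Aqp1, a water channel shared with endothelium, was lower, with 972 CPM in 5E1 and 1250 CPM in IgG AT1 cells, a ratio of 0.778 (0.734 to 0.826). The median of the transport list was -0.10 with female 5E1 cells alone, and so its direction rests on which cells are counted. In the AT2-like cluster 20 of 23 transport genes were higher, with a median of 0.42 and Scnn1g, Scnn1b and Scnn1a at 1.41, 1.36 and 1.18.

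Structural genes were close to level. Over all genes 49.1% were higher in the 5E1 library. Of 20 measured basement membrane genes 12 were higher and 0 were past 1.5-fold, with a median log2 ratio of 0.03. Col4a3 and Col4a4, chains of the type IV collagen shared with the capillary, had 0.13 and 0.03 (0.02 and -0.12 with female 5E1 cells alone), Lamb3, a laminin chain, 0.28, and Lamc1 -0.30. Of 10 measured integrins 6 were higher, with a median of 0.06. Of 6 measured caveola genes 5 were higher, with a median of 0.10. This median was above 0 in 16 of the 23 clusters, among which AT1 cells ranked 11. The list was led by Cav2 at 0.29 and Cav1 at 0.21, coat proteins of the membrane pits that are dense in AT1 cells. With female 5E1 cells alone Cav2 had 0.02 and Cav1 0.06. Of 44 cytoskeleton and cell spreading genes 21 were higher and 23 lower, with a median of -0.01. Past 1.5-fold lower were 4 of the 44, against 3.72% of all genes. Actb, cytoplasmic actin, had 4521 CPM in 5E1 and 5672 CPM in IgG AT1 cells, a ratio of 0.797 (0.775 to 0.819), and Anxa5, a membrane-binding annexin, 1.21 (1.12 to 1.31).

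Genes of the intermediate state between AT2 and AT1 cells were also split. Of 15 measured genes 5 were higher and 10 lower, with a median log2 ratio of -0.08. Krt8, the keratin that defines this state after injury in the mouse, had 500.2 CPM in 5E1 and 525 CPM in IgG AT1 cells. Cdkn1a, an inhibitor of the cell cycle, had a ratio of 1.40 (1.15 to 1.70), and Ccnd1, cyclin D1, 0.608 (0.418 to 0.881). RNA of dividing cells was scarce. Of 24 G2 and M phase genes 6 were measured, with 2 higher and a median of -0.12, and of 22 S phase genes 8 were measured, with 1 higher and a median of -0.25. A UMI of Mki67, which marks cycling cells, was found in 2.37% of thinned 5E1 and 2.10% of thinned IgG cells, and without thinning in 4.06% and 4.53%. Mki67 shares in thinned B cells were 5.99% in the 5E1 library and 4.02% in the IgG library, so the AT1 values are not above that of another cell type.

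**Figure D5:**
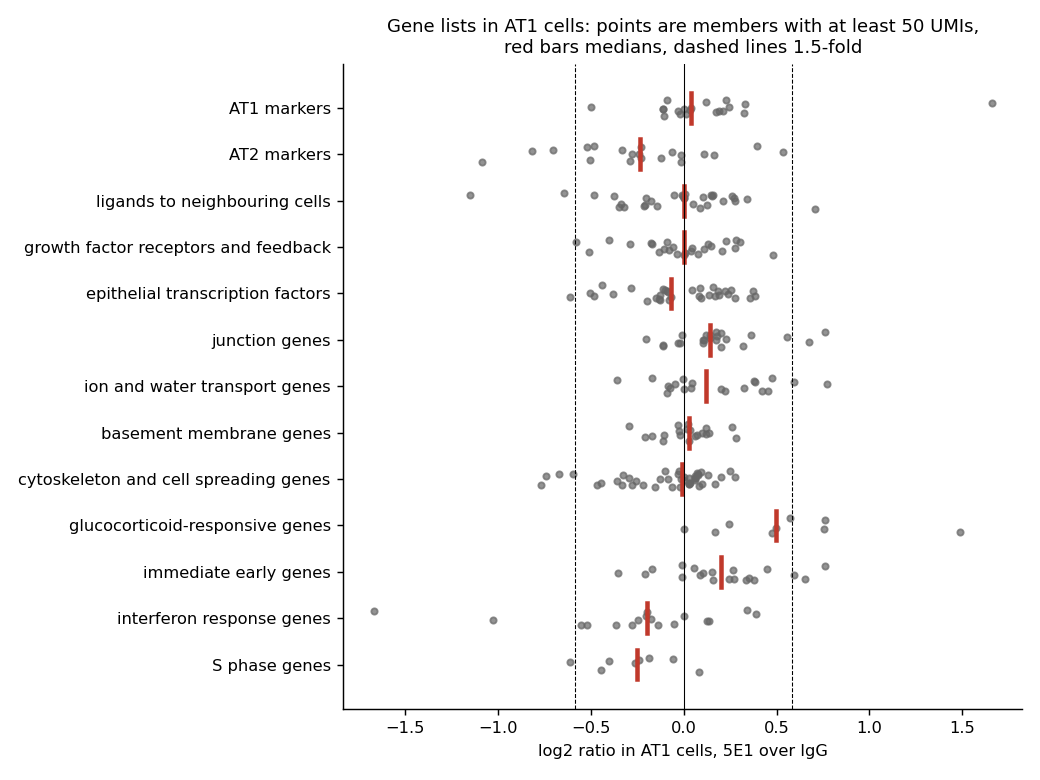
Log2 ratios (5E1 over IgG) in AT1 cells of the measured members of each gene list, with the median of each list as a red bar and 1.5-fold as dashed lines. The medians of the AT1, ligand, receptor and basement membrane lists lie between 0.00 and 0.04 when rounded, that of the AT2 list at -0.24 and that of the glucocorticoid list at 0.50.

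Genes that respond to glucocorticoids, steroid hormones that also mature the perinatal lung, were higher in the 5E1 library. Of 13 genes 9 were measured, and 9 of these were higher, with a median log2 ratio of 0.50, where 49.1% of all genes were higher. Past 1.5-fold higher were 3 of the 9, against 3.33% of all genes. Tsc22d3, the glucocorticoid-induced leucine zipper, had 170 CPM in 5E1 and 114 CPM in IgG AT1 cells, a ratio of 1.49 (1.25 to 1.78). A Tsc22d3 UMI was found in 30.5% of thinned 5E1 and 18.9% of thinned IgG AT1 cells, without thinning in 49.2% and 42.5%, and in 48.5% and 48.6% of thinned B cells, which make it too. Per1, a clock gene, had 46.8 CPM in 5E1 and 27.4 CPM in IgG AT1 cells, a ratio of 1.71 (1.20 to 2.45). Errfi1, an inhibitor of EGF receptor signalling, had 200.4 CPM in 5E1 and 142 CPM in IgG AT1 cells, a ratio of 1.41 (1.21 to 1.66).

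Other members rested on few cells or turned with female 5E1 cells alone. Cdkn1c, a cell cycle inhibitor, had 252 UMIs in the 5E1 library and 64 in the IgG library, but 3 cells held 171 of the 252, and its log2 ratio was -0.10 with female 5E1 cells alone. Mt2, a metallothionein, had 0.75, and -0.15 with female 5E1 cells alone. Nr3c1, the receptor itself, was at 0.00. The list was not particular to AT1 cells, since its median was above 0 in 20 of 23 clusters and AT1 cells ranked 7. Its median was 0.21 with female 5E1 cells alone.

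Immediate early genes, which respond within minutes to stress and to digestion, were also higher, with 15 of 20 measured and a median log2 ratio of 0.20. Over all genes 49.1% were higher. Fos had 297 CPM in 5E1 and 197 CPM in IgG AT1 cells, a ratio of 1.51 (1.33 to 1.72), and Junb had 1.36 (1.19 to 1.56). The log2 ratio of Fos was 0.20 with cells weighted alike and 0.76 with female 5E1 cells alone. It was past 1.5-fold in 2 of 7 settings. A Fos UMI was found in 30.8% of thinned 5E1 and 26.9% of thinned IgG cells, with overlapping intervals. The immediate early list had a median above 0 in 19 of 23 clusters, among which AT1 cells ranked 17. The part of this list in the values of Per1, Tsc22d3 and Errfi1 was not tested.

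Interferon response genes were lower in AT1 cells, as in every cluster. Of 17 measured genes 5 were higher and 12 lower, with a median log2 ratio of -0.20, where 50.9% of all genes were lower. The median of the list was below 0 in each of the 23 clusters and stood at -1.26 in the endothelial and -1.18 in the B cell cluster. Ifitm3, an antiviral membrane protein, had 58.0 CPM in 5E1 and 118 CPM in IgG AT1 cells, a ratio of 0.490 (0.392 to 0.611). Ifi27l2a had 14.2 CPM in 5E1 and 45.5 CPM in IgG AT1 cells. Both were at under 2% of their level in the highest cluster, and the part of free RNA in them was not tested. Of 8 measured MHC class I genes 2 were higher, with a median of -0.12.

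Markers of several other cell types differed between the libraries in cluster 15, while others were close. Endothelial markers summed to 190 CPM in 5E1 and 115 CPM in IgG AT1 cells, with 86 of the 141 Cldn5 UMIs of the 5E1 library in 3 cells. Myofibroblast and smooth muscle markers summed to 412 CPM in 5E1 and 777 CPM in IgG AT1 cells, with Acta2 at 51.8 and 163 CPM. Matrix fibroblast markers summed to 1304 and 1521 CPM, macrophage and monocyte markers to 156 and 230 CPM, and neutrophil markers to 435 and 264 CPM. In the 5E1 library 3 cells held 248 of the 439 S100a8 UMIs, and 3 cells held 233 of the 368 S100a9 UMIs. An S100a9 UMI was found in 25.7% of 5E1 and 25.4% of IgG AT1 cells. Sums were closer for ciliated markers (1850 CPM in 5E1 and 1899 CPM in IgG AT1 cells), mesothelial markers (288 and 261 CPM) and pericyte markers (55.1 and 51.3 CPM). Of the 8 ciliated markers only 2 reached 50 UMIs, Tppp3 and Sec14l3, and Sec14l3 is on the AT1 marker list too. The ciliated sum is therefore not read as RNA of ciliated cells. Haemoglobin genes summed to 209 CPM in 5E1 and 2046 CPM in IgG AT1 cells, and 2 IgG cells held 85.1% of the IgG haemoglobin UMIs. Calca, Chga, Resp18, Trp63 and Krt5, which mark neuroendocrine and basal cells, and Bpifa1 of secretory cells had 0 UMIs in both libraries. Other members of these lists were counted. The 8 neuroendocrine and basal markers summed to 4.18 CPM in 5E1 and 5.25 CPM in IgG AT1 cells, or 15.8% and 66.9% of their level in the airway cluster. Of the 8 club and secretory markers 7 had UMIs in each library, and the list summed to 1659 CPM in 5E1 and 2523 CPM in IgG AT1 cells. In 15 cells of the 5E1 library and 18 of the IgG library non-epithelial markers of a list reached 0.5% of UMIs.

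The part of these cells in the gene ratios is given by leaving them out. Camk2n1, Pim3, Bdnf, Cytl1, Lgi3, Plb1 and Ifitm3 were past 1.5-fold in the same direction in 7 of 7 settings that change which cells count or how they are weighted, and Nrg1 in 5 of 5. These genes were picked or named with their ratios known, so the counts describe them and are no independent support. Among thinned AT1 cells the median gene number was 1062.5 in the 5E1 library and 1070 in the IgG library, so at equal depth the cells were equally complex. Sftpc varied most between thinned cells, with a variance over mean of 129 in the 5E1 library and 111 in the IgG library, against a median of 1.02 and 1.01 over 4322 genes. Lyz2 had 10.2 and 13.6, Ager 5.36 and 5.98, and Igfbp2 3.44 and 4.80.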

How the data were processed

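Whole-number UMI counts per gene and cell barcode, as deposited by the authors, were used for both libraries. The submitters' processing notes name Cell Ranger 3.1.1 and the build mm10, and reporter sequences had been added to the reference per the deposited feature list. How cells were called is not stated here. The authors' deposited annotation gives each kept cell a library and a cluster, and its header is shifted by 1 column, so these columns were identified from their values. The 1065 barcodes of the 5E1 library and 1512 of the IgG library without annotation entered no comparison. All 58890639 UMIs of annotated 5E1 cells and 77436890 of annotated IgG cells were used.

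The members and gene lists were chosen with earlier results of these data known. UMIs were summed per cluster and library and divided by the cluster's total (CPM). Sums have exact 95% Poisson intervals, ratios exact conditional binomial intervals and shares Clopper-Pearson intervals, all for counting error only, since cells of 1 pool are not replicates. Ratios of cell shares use the conditional interval, which is not exact for them. Genes with at least 50 UMIs over both libraries were counted, with 1.5-fold as the limit, and log2 ratios have 0.5 UMI added to each sum. Shares of cells with a UMI were taken after drawing 2000 UMIs per cell without replacement. Clusters are named by their leading markers, and the AT2-like, airway, endothelial and B cell clusters are 9, 10, 11 and 4. Named genes are members of 35 lists with at least 20 UMIs, the 15 genes with the highest fold over the next cluster (at least 200 UMIs), and the 15 highest and 15 lowest ratios under the limits given in the text. The ranking leaves out mitochondrial, ribosomal, haemoglobin, immunoglobulin, predicted, Y-linked and X-inactivation genes, and a few genes the rule takes are not reported here. List symbols absent from the feature list were Gucy1a1, Gucy1b1, Patj, Cavin1, Cavin2 and Cavin3. Doublets were not removed, since Scrublet marked 0 of 9454 cells of the 5E1 library and was not used. Python 3.11.15, numpy 2.4.6, scipy 1.17.1, pandas 2.3.3 and scanpy 1.11.5 were used, and the fold calls were tested on simulated counts.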

Additional observations from a re-analysis of the deposited data

Results flagged for a closer look

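Some barcodes that the authors left out held AT1 markers, a signal outside the cells compared. Of 1065 left-out barcodes of the 5E1 library, 56 (5.26%, 3.996% to 6.77%) held UMIs of at least 2 of the 4 markers and at least 0.5% of their UMIs from Ager. Of 1512 left-out barcodes of the IgG library, 35 did (2.31%, 1.62% to 3.20%). A count of 0 would allow 0.282% in the 5E1 library and 0.198% in the IgG library. Among B cells 0 of 426 in the 5E1 library and 1 of 380 in the IgG library met the same limits, and among AT1 cells 97.1% and 96.9%. The median depth of these barcodes was 751.5 UMIs in the 5E1 library and 886 in the IgG library. With them counted as AT1 cells over all 10519 and 15021 barcodes, the ratio of AT1 shares was 2.21.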

How the results depend on the processing

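All 11 alternative values of the AT1 shares kept their direction, with ratios of 2.01 to 2.41 for all cells and 1.61 to 1.92 for the epithelium. No paired analysis was possible because each condition has 1 library. The number of genes past 1.5-fold higher in 5E1 was 522 with a minimum of 20 UMIs, 21 with 200 UMIs, 150 with thinned cells and 367 with cells weighted alike. The number of genes past 1.5-fold lower in 5E1 was in the same order 693, 39, 135 and 550. The other 12 of 20 counts stayed within 1.5 times. The median log2 ratio of the AT1 list was 0.074 with thinned cells, 0.065 with cells weighted alike, -0.015 with female 5E1 cells, 0.074 without the tenth of cells richest in AT2 RNA, 0.0064 without cells with other-cell markers and -0.0048 without both these and the cells above 1% Sftpc. In the same order that of the AT2 list was -0.53, -0.49, -1.09, -1.56, -0.31 and -0.31, where the fourth value leaves out cells by that same list. The ligand list had 0.13 with thinned cells and -0.066 with female 5E1 cells. The median log2 ratio of ion and water transport genes was 0.041 with a minimum of 20 UMIs, 0.043 with 200, 0.18 with thinned cells, -0.00298 with cells weighted alike and -0.10 with female 5E1 cells. The glucocorticoid list had 0.64, 0.34 and 0.21 with thinned, equally weighted and female 5E1 cells, and 0.62 without both kinds of cells. Among gene and list values past 1.5-fold, directions turned with female 5E1 cells for the neutrophil list (-0.34), Cdkn1c (-0.10), Ctss (0.0090), Mfap4 (0.037), Mt2 (-0.15), S100a9 (-0.28) and Slc12a2 (-0.17). They turned without cells with other-cell markers for the endothelial list (-0.25), Cldn5 (-0.55) and Eln (0.22), without both kinds of cells for Cldn5 (-0.29), Eln (0.44), Hba-a2 (0.061) and Postn (0.032), and without cells above 1% Sftpc for the neutrophil list (-0.062). The cause was not tested beyond the cells each setting leaves out. Turns of smaller ratios are not listed, other than those given beside the genes. Settings that leave out Sftpc-rich or other-cell cells, shared barcodes or cells of unclear sex in both libraries, and the one that counts left-out barcodes, were chosen after seeing the data. A planned doublet setting was not run, since the caller marked 0 cells of the 5E1 library. Female 5E1 values of genes and lists rest on 107 cells set against all 287 IgG AT1 cells, and genes under 200 UMIs have wide counting intervals.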
